A study of Mus musculus with 39 samples.

Results

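The genes described here are 38 genes of epidermal differentiation and of the hair follicle, chosen by symbol from the expression table of 39 mouse breast tumor libraries. Of these, 37 were matched by symbol and Flg was not analysed here. Among the 20520 genes of the table, 13650 had a level of at least 1 CPM (a gene's reads scaled to a common library total) in at least 9 libraries and were tested, and 17 of the 37 members were among them. The other 20 members are given by their levels.

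The tumors were PB2 mouse breast cancer grafts in which the cells carried either FL-HER2, the full-length HER2 receptor, or p95HER2, a truncated form of it that lacks most of the extracellular domain. They were taken 10 or 22 days after implantation. At day 10 there were 10 libraries of each construct, and at day 22 there were 9 of FL-HER2 and 10 of p95HER2, each from poly(A) RNA of a tumor labelled as breast cancer. The labels name no PB2 tumor without a HER2 construct, so every comparison is between 2 HER2-bearing groups, and they give neither the host strain and sex nor the site of implantation, nor whether the libraries of a group came from separate animals. Each library's label carries its own tumor number, so the p-values measure the spread between tumor libraries, which need not be a spread between animals. Erbb2, the mouse gene for HER2, was read at day 10 at 184 ± 29.4 CPM in tumors with FL-HER2 and 346 ± 62.3 CPM in those with p95HER2 (SD, n = 10 each), and the luminal epithelial keratin Krt8 was read at 459 to 752 CPM in all libraries.

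The epidermis renews itself from basal cells that express Krt5 and Krt14. As these cells move outward they switch to the suprabasal keratins Krt1 and Krt10, and later lay down loricrin (Lor), involucrin (Ivl), small proline-rich proteins and hornerin (Hrnr), which transglutaminases such as Tgm1 and Tgm3 cross-link into the cornified envelope. The hair follicle builds its own keratins, Krt25, Krt27 and Krt71 in the inner root sheath and Krt31, Krt33a, Krt35 and Krt86 in the hair shaft, and hardens the sheath with trichohyalin (Tchh) after the deiminase Padi3 has modified it. A graft under the skin can carry a sliver of overlying skin, and mammary tumor cells can themselves turn on squamous genes, so the same transcript can come from either source in bulk RNA. In such RNA, fewer cells of a type and less RNA per cell cannot be told apart.

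The members lie in a few clusters (GRCm38 coordinates, GENCODE M21). On chromosome 3, 7 of them, among them Lor, Ivl, Hrnr and Tchh, lie between 90560578 and 93449077, the epidermal differentiation complex, and 5 on chromosome 7 lie between 24636550 and 30791097, where Sbsn, Dmkn and Krtdap are neighbours. The type I keratins are on chromosome 11 and the type II keratins on chromosome 15. RefSeq promoter windows (GRCm38.p6) were matched for 27 members. The 150 bases before the start of 6 of them are shown because they stand for the patterns found: Lor (chr3:92083143-92083292, minus strand) and Krtdap (chr7:30787755-30787904, plus strand) were higher in every library with skin markers than in any other, Krt10 (chr11:99389365-99389514, minus strand) was read in all libraries and rose with those markers, Krt71 (chr15:101743098-101743247, minus strand) was high in 1 library, and Padi3 (chr4:140810649-140810798, minus strand) and Tchh (chr3:93442180-93442329, plus strand) were read in all libraries without following the markers. Capitals mark matches to the AP-1 motif TGANTCA (either strand) and to the TATA box TATAAA (gene strand), and each line runs 5′ to 3′ on the gene's strand.
Lor: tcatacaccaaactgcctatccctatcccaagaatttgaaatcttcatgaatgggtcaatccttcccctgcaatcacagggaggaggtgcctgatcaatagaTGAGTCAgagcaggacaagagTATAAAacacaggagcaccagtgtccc
Krtdap: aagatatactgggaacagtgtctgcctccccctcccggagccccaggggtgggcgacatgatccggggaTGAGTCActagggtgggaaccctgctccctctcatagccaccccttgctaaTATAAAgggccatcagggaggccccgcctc
Krt10: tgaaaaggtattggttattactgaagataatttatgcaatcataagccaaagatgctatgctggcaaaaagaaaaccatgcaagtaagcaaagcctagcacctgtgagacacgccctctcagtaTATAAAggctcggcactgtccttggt
Krt71: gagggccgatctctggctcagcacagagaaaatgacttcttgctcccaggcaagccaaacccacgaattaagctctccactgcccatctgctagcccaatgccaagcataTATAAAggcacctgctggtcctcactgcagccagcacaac
Padi3: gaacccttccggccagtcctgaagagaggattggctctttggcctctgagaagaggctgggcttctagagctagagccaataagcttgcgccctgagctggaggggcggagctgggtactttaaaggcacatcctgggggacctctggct
Tchh: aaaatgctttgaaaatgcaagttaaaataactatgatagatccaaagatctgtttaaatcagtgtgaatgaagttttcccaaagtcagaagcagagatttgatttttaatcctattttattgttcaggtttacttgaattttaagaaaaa

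In the 250 bases before the start, TGANTCA was found in 7 of the 27 members (Dmkn, Ivl, Krtdap, Lor, Sbsn, Sprr1a and Sprr1b), against 6.75% of all 32851 windows of that length. TATAAA was found in 13 of the 27, against 7.59% of all windows. The short motif CACCC of Krüppel-like factors (both strands) was found in 20 of the 27 and in 52% of all windows, and the Grainyhead-like motif AACCGGTT (which is its own reverse) in 0 of the 27 and 0.116% of all windows. A TGANTCA match followed by CCC shares its last letters with a CACCC match. A match only says that these letters are in the window. A member was counted if any of its windows matched, and 23 of the 27 had 1 window, while the shares are per window. All 7 members with TGANTCA were among the 17 with a window that rose with the skin markers in the fit without a filter on low values, and TGANTCA was found in 0 of the 10 that did not rise, while TATAAA was found in 8 of those 17 and in 5 of those 10. This split was taken from these same data, and a link between motif and slope was not tested.

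Libraries differed in their level of late epidermal transcripts. To measure this without the members, 26 other late epidermal genes (the late cornified envelope genes, Krt77, Kprp, Rptn and the like) were used as an anchor list. Of these, 24 were in the table, and only Lce1a1 and Crct1, both products of the outermost living layer, reached 1 CPM in at least 5 libraries. The mean log2 value of these 2 genes, called the epidermal anchor score, was 0 to 0.42 in 28 libraries and 1.45 to 6.41 in the other 11 libraries, which are called skin-marked. The name stands for these transcripts, and whether they came from overlying skin or from tumor cells was not tested. The 28 held 0 to 6 reads of all 24 anchor genes per library, 29 in total, and 17 of them held 0.

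The skin-marked libraries were replicates 7 and 10 of FL-HER2 at day 10, replicate 7 of FL-HER2 at day 22, replicates 2, 3, 7, 8 and 9 of p95HER2 at day 10 and replicates 3, 4 and 10 of p95HER2 at day 22. They made up 2 of 10, 1 of 9, 5 of 10 and 3 of 10 libraries of these groups, so the groups were not balanced for them. Most also held little skeletal muscle RNA: the 20 muscle genes took 0.00343% to 1.10% of reads (median 0.0153%) in the skin-marked and 0.00125% to 3.75% (median 0.518%) in the other libraries. The melanocyte genes Tyr, Mlana and Slc45a2 were at 0 in 10, 10 and 9 of the 11 and in 27, 22 and 24 of the other 28. Tyrp1, Dct and Trpm1 were at 0 in 8, 8 and 2 of the 11 and in 26, 23 and 5 of the 28. Pmel was read in all libraries, at 0.311 to 1.34 CPM in the 11 and 0.355 to 2.75 CPM in the 28. The sebaceous gland list summed to 14.3 to 35.5 CPM in the skin-marked and 9.80 to 34.9 CPM in the other libraries, so these 2 lists did not set the 11 apart. FL-HER2 day 22 replicate 7 differed from the other skin-marked libraries in its makeup, since Krt77 gave 280 of its 372 anchor reads and its ratio of Krt1 to Lor in CPM was 0.417, against 1.17 to 6.28 in the other 10.

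**Figure D1:**
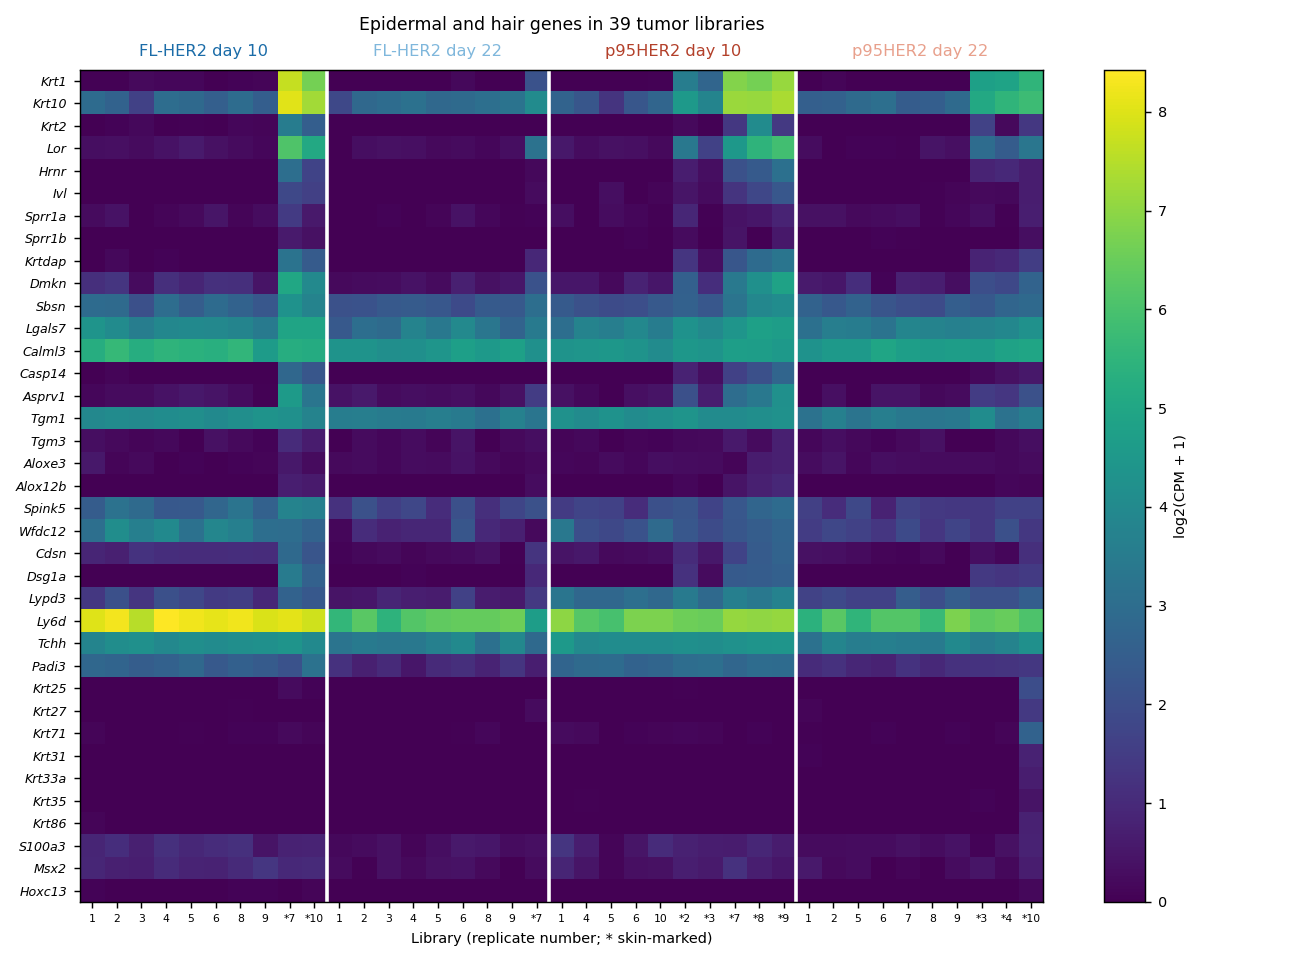
Level of the 37 members (rows) in the 39 libraries (columns, by group and replicate number, skin-marked libraries marked with * and placed last in each group), as log2(CPM + 1); colors compare libraries within a row, since CPM is not scaled by gene length. The upper block is high in the 11 skin-marked columns, Calml3, Tgm1, Ly6d and Tchh are read in all 39, and the hair keratins stand out only in p95HER2 day 22 replicate 10.

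The suprabasal keratins showed the difference most clearly. Krt1, the type II keratin of the first suprabasal layers, was at 3.35 to 205 CPM (median 44.6) in the 11 skin-marked libraries and at 0 to 0.153 CPM in the other 28, with 0 reads in 18 of them. The 2 sets did not overlap, and the largest value came from FL-HER2 day 10 replicate 7. Its type I partner Krt10 was at 12.9 to 266 CPM (median 54.4) in the skin-marked libraries, again without overlap, but was also read in all 28 others, at 1.39 to 8.22 CPM (median 5.92). Krt2, a keratin of the upper spinous and granular layers, was at 0 to 15.8 CPM (median 1.61) in the 11 and at 0 in 23 of the 28. Of the 3 keratins, Krt10 was the one with reads in all 28 libraries in which the late anchor genes had few or none.

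Among the cornified envelope proteins, Lor, the major envelope protein of mouse epidermis, was at 2.08 to 68.3 CPM (median 9.35) in the skin-marked and at 0 to 0.531 CPM (median 0.233) in the other libraries. Hrnr, a filaggrin-like protein of the keratohyalin granules, was at 0.124 to 7.63 CPM in the 11 and at 0 in all 28 others, where the limit that a count of 0 allows was 0.0675 to 0.138 CPM per library. Ivl was at 0.143 to 3.89 CPM in the 11 and at 0 in 24 of the 28. The genes of the small proline-rich proteins Sprr1a and Sprr1b are related, and their reads may be shared between copies. Sprr1a was at 0.0285 to 1.68 CPM in the 11 and 0 to 0.392 CPM in the 28. Sprr1b was at 0 to 0.530 and 0 to 0.0636 CPM, so the sets overlapped for both. Casp14, the caspase of cornifying cells, was at 0 to 6.04 CPM in the 11 and had reads in only 1 of the 28, and Alox12b, a lipoxygenase of the lipid barrier, was at 0 in all 28 and at up to 0.903 CPM in the 11. Krtdap, a small secreted keratinocyte protein, followed the same pattern, with 0.228 to 8.69 CPM in the 11 and 0 in 26 of the 28. Aloxe3, another lipoxygenase, did not: it was at 0.0816 to 0.654 CPM in the 11 and 0 to 0.455 CPM in the 28, with overlap.

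Which members moved with these late epidermal transcripts was tested as a slope: the log2 change of a gene per unit of the anchor score, with the 4 groups in the fit, so that libraries were compared within groups. Over all 13650 genes 4.03% had a slope at an adjusted p under 0.05, 0.491% upward and 3.54% downward, the latter including 16 of 20 muscle genes (median -0.64). Among the 17 members tested 11 rose and 0 fell, with a median slope of 0.19 beside -0.000282 over all genes. For 6 of the 17, Krt1, Lor, Dmkn, Asprv1, Cdsn and Dsg1a, the filter was passed only through the skin-marked libraries, so these 6 could hardly do other than rise.

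Of the 11 members that passed the filter within the 28 libraries without skin markers as well, 5 rose. Krt10 rose by 0.87 ± 0.04 per unit (SE, adjusted p = 6.63e-19) and Sbsn, a secreted suprabasal protein, by 0.25 ± 0.03 (adjusted p = 4.89e-07). Smaller rises were those of Spink5, the inhibitor of skin kallikreins, at 0.19 ± 0.04 (adjusted p = 0.0042), of Lgals7, a galectin of stratified epithelia, at 0.17 ± 0.03 (adjusted p = 0.00037), and of Lypd3, a surface protein of suprabasal keratinocytes, at 0.16 ± 0.04 (adjusted p = 0.0313). The call for Lypd3 was lost without FL-HER2 day 10 replicate 7 (adjusted p = 0.151) or 10 (0.117) or p95HER2 day 10 replicate 7 (0.0506) or 10 (0.054).

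The slopes of the 6 members that reached the filter through the skin-marked libraries are given as a description. Krt1 had a slope of 2.03 ± 0.11, Dsg1a, the desmosomal cadherin of differentiated layers, 1.32 ± 0.06 and Lor 1.31 ± 0.08. Reads of Dsg1a may be shared with its close copies. Asprv1, a skin protease that processes filaggrin, had a slope of 1.02 ± 0.08, Dmkn, secreted from the same cells as Sbsn, 0.86 ± 0.07 and Cdsn, the corneodesmosome adhesion protein, 0.50 ± 0.07.

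**Figure D2:**
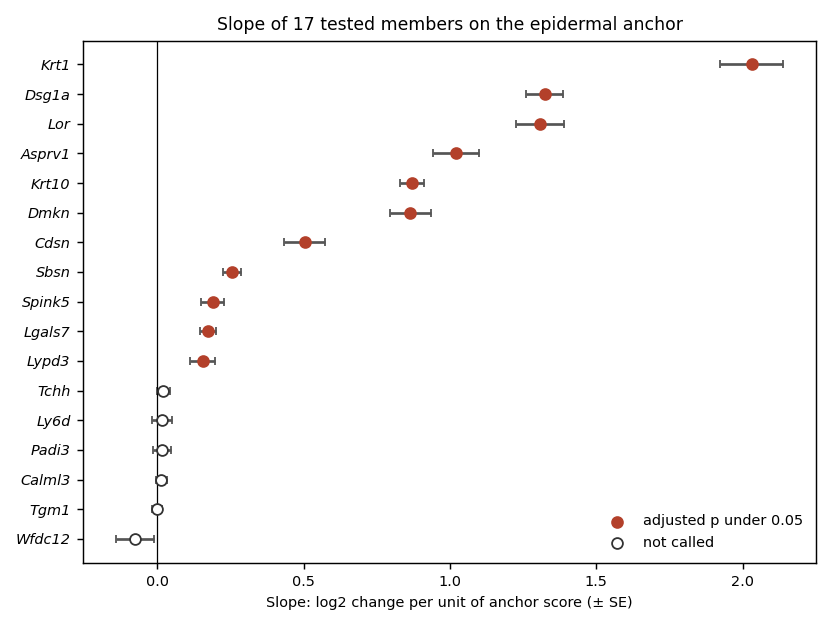
Slope of each of the 17 tested members on the epidermal anchor score (x axis, log2 change per unit of score, point ± SE from the limma fit), filled where the adjusted p is under 0.05. Krt1 lies at 2.03 and the 6 open points, Wfdc12 to Tchh, lie between -0.08 and 0.02.

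The other 6 tested members did not pass the test: Tchh (0.02 ± 0.02), Calml3 (0.01 ± 0.02), Padi3 (0.02 ± 0.03), Ly6d (0.02 ± 0.04), Tgm1 (-0.002 ± 0.017) and Wfdc12 (-0.08 ± 0.06), with adjusted p from 0.632 to 0.968. The 95% interval of the slope (34 residual degrees of freedom) ran from -0.03 to 0.07 for Tchh, from -0.05 to 0.08 for Padi3 and from -0.04 to 0.03 for Tgm1, all below the slopes of the 11 called members, and from -0.06 to 0.09 for Ly6d. In p95HER2 at day 10, where 5 libraries were skin-marked and 5 were not, Tchh was at 16.4 to 20.3 CPM in the former and 14.7 to 22.0 CPM in the latter, and Tgm1 at 15.6 to 19.6 and 15.6 to 18.8 CPM, so the sets overlapped for both. Krt10 in the same 2 sets was at 12.9 to 165 and 1.39 to 5.67 CPM. Slopes are on the log2 scale, so the same added CPM gives a smaller slope where the level without it is higher. Whether genes read at higher levels, such as Tchh and Tgm1, held a small added amount was not tested.

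When the muscle score was added to the fit, 9 of the 17 members still rose, among 27 of all genes (0.198%), and Lypd3 (adjusted p = 0.182) and Spink5 (0.213) no longer passed. The 9 were Krt10, Sbsn, Lgals7 and the 6 members that reached the filter only through the skin-marked libraries. With no filter on low values 20 of the 37 members rose and 0 fell, beside 3.62% of all 20518 genes called in either direction. Besides the 11 above these were Hrnr, Krtdap, Casp14, Krt2, Ivl, Alox12b, Sprr1a, Sprr1b and Tgm3, while no hair keratin did. Within single groups the slope was called for 9 members in p95HER2 at day 10 (0.11% of all genes), 7 in FL-HER2 at day 10 (0.176%), 4 in p95HER2 at day 22 (Krt1, Krt10, Lor and Dsg1a, 0.044%) and 0 in FL-HER2 at day 22, where 1 library was skin-marked and 10 members had an unadjusted limma p under 0.05. These counts include the same 6 members or part of them. Outside the 6, Krt10, Sbsn and Lgals7 were called in p95HER2 at day 10, and Krt10 alone in FL-HER2 at day 10 and p95HER2 at day 22.

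**Figure D3:**
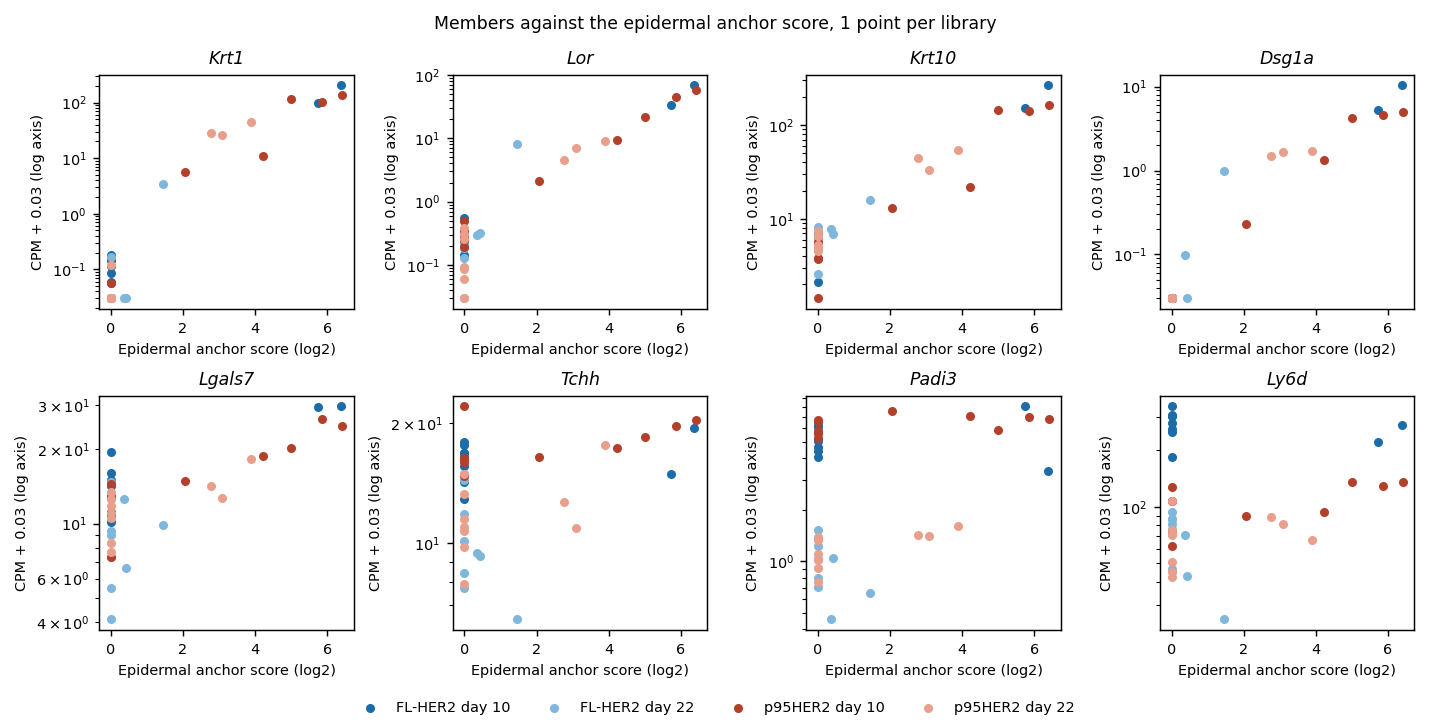
Level of 8 members (y axis, CPM + 0.03 on a log axis) against the epidermal anchor score (x axis, log2), 1 point per library, colored by group. Krt1, Lor, Krt10 and Dsg1a are high in the libraries with a high score, Lgals7 is slightly higher there, and Tchh, Padi3 and Ly6d separate by day or construct instead.

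In the 28 libraries without skin markers, 7 members were read at 1 CPM or more in each library: Krt10, Sbsn, Calml3, Tgm1, Tchh, Lgals7 and Ly6d. These and Padi3, Lypd3, Spink5 and Wfdc12, which passed the filter within the 28 as well, carried most of the differences by day and construct.

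**Figure D4:**
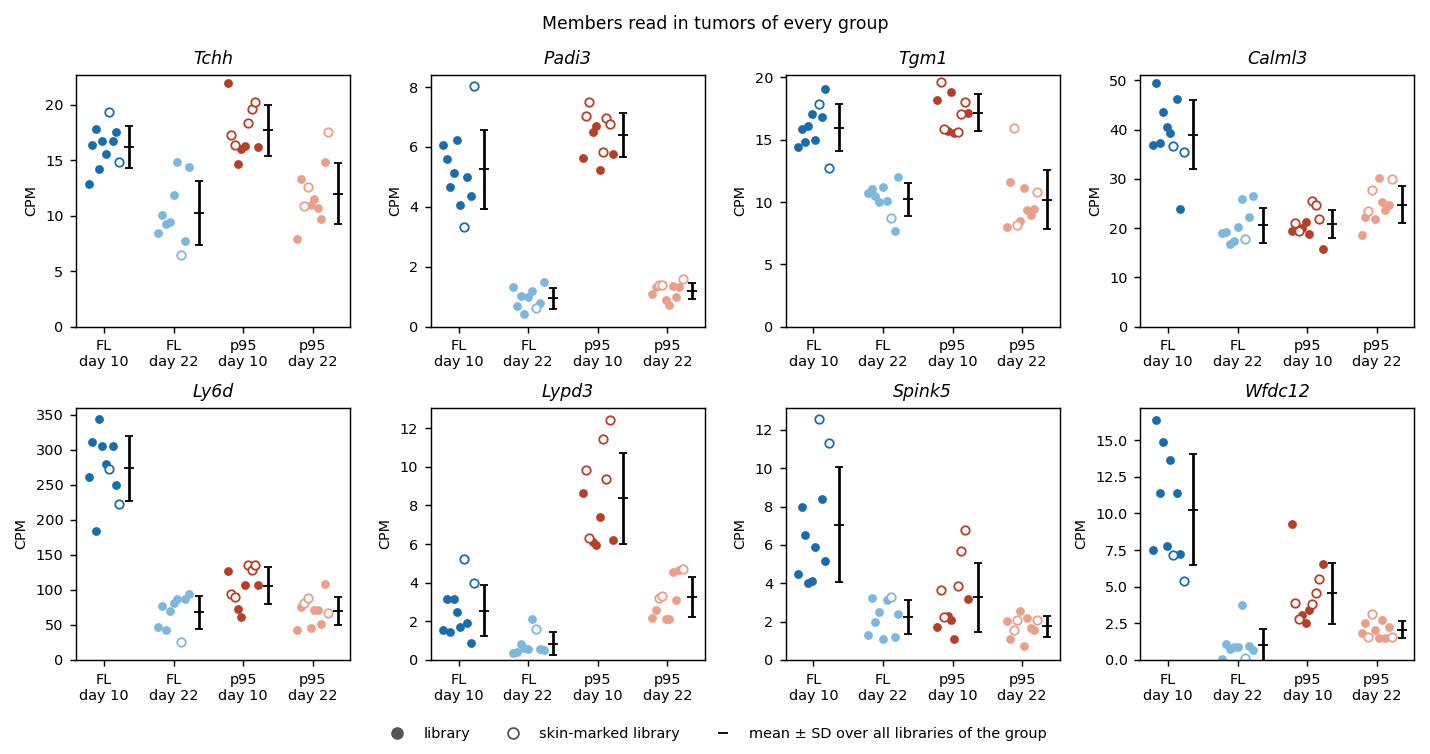
Level of 8 members (y axis, CPM from 0) in the 4 groups (x axis), 1 point per library, open where skin-marked, with the group's mean ± SD beside the points. Padi3 falls from day 10 to day 22 in both constructs without overlap, Ly6d is highest in FL-HER2 at day 10 and Lypd3 in p95HER2 at day 10.

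The comparison of day 22 with day 10 asks how these genes differed between the earlier and the later tumors. In FL-HER2 51.4% of all tested genes differed (20.7% higher and 30.6% lower), and in p95HER2 35.2% differed (16.6% higher and 18.6% lower). Of the 17 members 12 fell and 0 rose in FL-HER2 (median log2 change -1.58, against -0.03 over all genes), and 8 fell and 0 rose in p95HER2 (median -1.11, against 0.00165). For 6 of the 17 the filter was passed only through the skin-marked libraries, which were more frequent at day 10 in both constructs. The counts and medians therefore depend in part on these libraries. Of the 6, Cdsn and Dmkn were among the falls in FL-HER2 and Cdsn among those in p95HER2. Without the skin-marked libraries the count was 5 in p95HER2 (Padi3, Tgm1, Lypd3, Tchh and Ly6d), beside 25.7% of all genes. The fibroblast list fell as well, 10 of 10 genes in FL-HER2 (median -2.45) and 9 of 10 in p95HER2 (median -0.911), and of the 20 muscle genes 9 fell in FL-HER2 and 0 in p95HER2. The part of these cells in the falls of the members was not tested.

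Of the 5 inner root sheath members, Padi3 and Tchh were tested, and both fell with time in both constructs. Padi3, the deiminase that acts on trichohyalin, was at 3.33 to 8.04 CPM (median 5.07) in FL-HER2 at day 10 and at 0.428 to 1.49 CPM (median 0.997) at day 22. In p95HER2 it was at 5.23 to 7.50 CPM (median 6.59) and 0.731 to 1.59 CPM (median 1.31). The days did not overlap in either construct, and the log2 change was -2.60 ± 0.17 (adjusted p = 3.44e-15) for FL-HER2 and -2.47 ± 0.16 (adjusted p = 7.22e-15) for p95HER2. Its substrate Tchh was at 12.9 to 19.4 CPM (median 16.6) and 6.43 to 14.8 CPM (median 9.43) in FL-HER2, and at 14.7 to 22.0 CPM (median 16.8) and 7.89 to 17.6 CPM (median 11.2) in p95HER2. The days overlapped for Tchh, and the change was -0.82 ± 0.13 (adjusted p = 1.24e-06) and -0.65 ± 0.12 (adjusted p = 5.30e-05). Both genes were read in every library although the inner root sheath keratins Krt25, Krt27 and Krt71 were at or near 0 in nearly all of them.

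Tgm1, the membrane-bound transglutaminase of the cornified envelope, also fell in both. It was at 12.7 to 19.1 CPM (median 15.97) in FL-HER2 at day 10 and 7.69 to 12.0 CPM (median 10.5) at day 22, without overlap, and at 15.6 to 19.6 CPM (median 17.1) and 7.98 to 15.95 CPM (median 9.42) in p95HER2. The p95HER2 ranges overlapped only through the skin-marked replicate 3 of day 22, at 15.95 CPM. The changes were -0.76 ± 0.10 (adjusted p = 2.88e-08) and -0.84 ± 0.09 (adjusted p = 3.06e-09). Tgm3, the second transglutaminase of the group, stayed at or below 1.03 CPM in all libraries and was not tested.

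Ly6d, a small surface antigen of keratinocytes and of early B cells, set FL-HER2 at day 10 apart from the other groups. It was at 184 to 343 CPM (median 276) in FL-HER2 at day 10, 25.1 to 94.3 CPM (median 76.3) at day 22, 61.9 to 136 CPM (median 107) in p95HER2 at day 10 and 42.1 to 108 CPM (median 71.2) at day 22. FL-HER2 at day 10 overlapped no other group. It fell with time by 2.22 on the log2 scale in FL-HER2 (-2.22 ± 0.20, adjusted p = 8.01e-12) and by less in p95HER2 (-0.68 ± 0.19, adjusted p = 0.00506), and this difference between constructs passed its own test (1.54 ± 0.27, adjusted p = 0.000174).

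Both tested protease inhibitors, Wfdc12, a whey acidic protein family member of skin, and Spink5, fell with time in each construct, and the difference between constructs passed its own test for Wfdc12 (2.77 ± 0.51) and not for Spink5 (0.93 ± 0.39, adjusted p = 0.0843). Wfdc12 was at 5.37 to 16.4 CPM (median 9.57) in FL-HER2 at day 10 and 0.0987 to 3.72 CPM (median 0.872) at day 22, without overlap (-3.88 ± 0.36, adjusted p = 2.55e-11). In p95HER2 it was at 2.51 to 9.29 CPM (median 3.84) and 1.53 to 3.12 CPM (median 1.96), with overlap (-1.11 ± 0.35, adjusted p = 0.0118, and 0.0612 without the skin-marked libraries). Spink5 was at 4.02 to 12.6 CPM (median 6.20) and 1.09 to 3.26 CPM (median 2.396) in FL-HER2, without overlap (-1.76 ± 0.28, adjusted p = 1.92e-06). In p95HER2 Spink5 was at 1.11 to 6.79 CPM (median 2.74) and 0.731 to 2.54 CPM (median 1.86), and its call (-0.83 ± 0.27, adjusted p = 0.0151) was lost without the skin-marked libraries (-0.39, adjusted p = 0.379).

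Lypd3 fell in both constructs from different levels. It was at 0.898 to 5.22 CPM (median 2.20) and 0.362 to 2.11 CPM (median 0.571) in FL-HER2 (-1.74 ± 0.28, adjusted p = 2.46e-06), and at 5.96 to 12.4 CPM (median 8.02) and 2.11 to 4.73 CPM (median 3.17) in p95HER2 (-1.43 ± 0.27, adjusted p = 5.17e-05). The days overlapped in FL-HER2 and not in p95HER2. Calml3, a calmodulin-like protein of differentiating epithelia, fell in FL-HER2 from a median of 38.3 to 19.2 CPM (-1.03 ± 0.11, adjusted p = 4.82e-10), and in p95HER2 it was at medians of 20.5 and 24.2 CPM (0.19 ± 0.11, adjusted p = 0.172). Lgals7 fell in FL-HER2 from a median of 14.6 to 8.99 CPM (-1.09 ± 0.22, adjusted p = 9.08e-05) and did not pass the test in p95HER2 (-0.42 ± 0.22, adjusted p = 0.13).

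The remaining falls belonged to genes that also follow the anchor. Cdsn fell in both constructs (FL-HER2 -2.91 ± 0.60, adjusted p = 0.00011, p95HER2 -1.96 ± 0.59, adjusted p = 0.00756), and in the libraries without skin markers the first call held (-2.85, adjusted p = 4.50e-07) while the second was lost (-0.99, adjusted p = 0.097). Sbsn fell in FL-HER2 (-0.83 ± 0.29, adjusted p = 0.0151), a call lost under quantile normalization (-0.49, adjusted p = 0.158). The call was also lost with a term for the digits of the column name, where the change was larger (-1.18, adjusted p = 0.0797). With that term the FL-HER2 day 10 level rests on replicates 7 and 9, and the skin-marked replicate 7 was the library highest in Sbsn, at 18.9 CPM. The fall of Dmkn in FL-HER2 (-2.09 ± 0.88, adjusted p = 0.0443) was lost under 6 of 10 alternatives and with 12 of 39 libraries left out 1 at a time. Krt1, Krt10, Lor, Dsg1a and Asprv1 passed no comparison of days in the fit over all libraries, with standard errors of 0.80 to 1.94. Without those libraries Krt1 fell in FL-HER2 (-1.21 ± 0.45, adjusted p = 0.0266), at levels of at most 0.153 CPM, close to the limit that a count of 0 allows.

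The comparison of p95HER2 with FL-HER2 asks how tumors with the truncated receptor differed from those with the full-length one. At day 10 41.3% of all tested genes differed (15.2% higher and 26.1% lower in p95HER2). Of the 17 members 1 was higher and 4 were lower, with a median of 0.07 beside -0.04 over all genes. Lypd3 was higher, by 1.77 ± 0.27 (adjusted p = 2.98e-06), and its groups did not overlap. Ly6d was lower by 1.45 on the log2 scale (-1.45 ± 0.19, adjusted p = 2.34e-07), also without overlap, and Calml3, with 15.7 to 25.4 CPM for p95HER2 and 23.8 to 49.5 CPM for FL-HER2, changed by -0.95 ± 0.11 (adjusted p = 8.36e-09). Spink5 (-1.24 ± 0.27, adjusted p = 0.000386) and Wfdc12 (-1.25 ± 0.35, adjusted p = 0.00442) were lower as well.

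These 5 calls at day 10 were also made without the skin-marked libraries. The muscle list took a mean of 1.81% of the day 10 reads with FL-HER2 and 0.308% with p95HER2. In the column names, 8 FL-HER2 day 10 libraries carry a tumor number of 5 digits where all others have 3. With the muscle score in the fit Wfdc12 was lost (-0.92, adjusted p = 0.103), and with a term for the digits it was lost too (-0.80, adjusted p = 0.445), while the other 4 passed in both. With the term for the digits the FL-HER2 day 10 level rests on replicates 7 and 9 alone, and replicate 7 was skin-marked. Cdsn and Sbsn became lower in p95HER2 once the skin-marked libraries were left out (-1.92, adjusted p = 0.00141, and -0.67, adjusted p = 0.0103). In the libraries without skin markers Cdsn ranged from 0.652 to 1.35 CPM with FL-HER2 and from 0.151 to 0.441 CPM with p95HER2, with no overlap. Of Krt10 the change was 0.42 ± 0.80 over all libraries (adjusted p = 0.699) and -0.58 with the anchor score in the fit (adjusted p = 0.0444), so its direction turned.

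At day 22 4.52% of all tested genes differed (2.98% higher and 1.54% lower in p95HER2), and 2 of the 17 members were higher and 0 lower. Lypd3 was higher again (2.07 ± 0.28, adjusted p = 2.50e-06), with ranges of 2.11 to 4.73 CPM in p95HER2 and 0.362 to 2.11 CPM in FL-HER2 that met at their ends. Wfdc12 was higher at day 22 (1.52 ± 0.36, adjusted p = 0.0102), opposite to day 10, and this call was lost without the skin-marked libraries (1.30, adjusted p = 0.104). Ly6d, Calml3 and Spink5 did not pass at day 22 (0.09 ± 0.20, 0.27 ± 0.11 and -0.30 ± 0.28, adjusted p = 0.859, 0.167 and 0.619).

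Whether the difference between constructs changed with the day was tested as an interaction, which 19.6% of all genes passed (13.5% upward and 6.2% downward). Of the members 3 passed, all upward: Calml3 (1.22 ± 0.15, adjusted p = 1.13e-06), Ly6d (1.54 ± 0.27) and Wfdc12 (2.77 ± 0.51, adjusted p = 0.000233). All 3 were higher in FL-HER2 at day 10, and at day 22 their medians in p95HER2 and FL-HER2 were 24.2 and 19.2, 71.2 and 76.3, and 1.96 and 0.872 CPM. With a term for the digits of the column name the change of Wfdc12 was 2.32 and its call was lost (adjusted p = 0.0791). Without the skin-marked libraries 6 members passed, Cdsn, Sbsn and Spink5 in addition (adjusted p = 0.0339, 0.0467 and 0.0421), beside 12.2% of all genes. Lypd3 did not pass (0.30 ± 0.39, adjusted p = 0.615), and the comparisons share their groups, so their values are not independent of each other.

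Of the hair follicle members, Tchh, Padi3 and S100a3 were read in all 39 libraries and Msx2 in 36, while the 7 hair keratins had most of their reads in 1 library. In p95HER2 day 22 replicate 10 the 7 hair keratins had 432 reads: 104 of Krt25, 57 of Krt27 and 186 of Krt71 from the inner root sheath, and 26 of Krt31, 21 of Krt33a, 13 of Krt35 and 25 of Krt86 from the hair shaft. No other library had more than 11 reads of the 7, and 17 of the other 38 had 0. The hair shaft keratins have near-identical neighbours, so the division of reads between them is uncertain. Of 25 further hair genes (other hair keratins and keratin-associated proteins), 21 had more reads there than in any other library, with a sum of 7.25 CPM against 0.0621 to 0.785 CPM elsewhere.

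**Figure D5:**
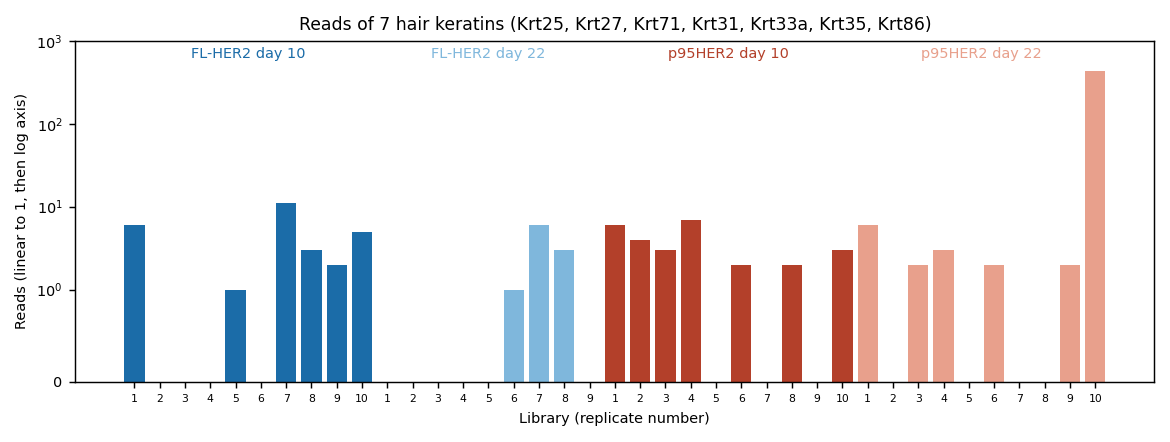
Reads of the 7 hair keratin members summed (y axis, linear from 0 to 1 and logarithmic above) in each of the 39 libraries (x axis, replicate number, colored by group). p95HER2 day 22 replicate 10 has 432 reads and no other library more than 11.

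The same library was skin-marked, with Krt1 at 44.6 CPM and Krt10 at 54.4 CPM, but it did not have the highest Krt1. FL-HER2 day 10 replicate 7, with Krt1 at 205 CPM, had 11 hair keratin reads, and p95HER2 day 10 replicate 9, with Krt1 at 139 CPM, had 0. The libraries highest in Krt1 were thus not the one high in hair keratins. Tchh in p95HER2 day 22 replicate 10 was at 17.6 CPM, the highest of its group, whose median was 11.2 CPM, and Padi3 was at 1.59 CPM, also the highest. The hair transcription factors were low: Hoxc13, which drives hair keratin genes, was at 0.142 CPM at most, and Msx2 at 1.51 CPM at most. Msx2 was at 0.642 to 1.51 CPM in FL-HER2 at day 10 and 0 to 0.322 CPM at day 22, without overlap, and S100a3, a calcium-binding protein of the hair cuticle, at 0.348 to 1.26 and 0.0900 to 0.505 CPM, with overlap, and neither was tested.

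Other genes of the squamous pathway, taken from lists outside the 38, were compared in the same fits. Of 16 tested genes of the envelope and lipid barrier 6 rose with the anchor, among them the kallikreins Klk7 (0.72 ± 0.08, adjusted p = 1.01e-07) and Klk6 (0.34 ± 0.07, adjusted p = 0.00359), proteases that Spink5 can restrain, and 0 fell. Klk6 differed most between constructs, but it reached the filter through the p95HER2 libraries, so this is given as a description. At day 10 it ranged from 0 to 1.09 CPM with FL-HER2 and from 1.90 to 6.76 CPM with p95HER2 (5.68 ± 0.48). At day 22 it ranged from 0 to 0.0459 and from 0.902 to 5.34 CPM (5.83 ± 0.49), with no overlap at either day. The FL-HER2 values of day 22 lay within the limit that a count of 0 allows, so the size of that change is uncertain. Of these 16 genes 4, Klk6 included, were higher and 0 lower in p95HER2 at each day. Over all genes 15.2% were higher at day 10 and 2.98% at day 22.

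Of 12 tested squamous and stress keratinocyte genes 3 rose with the anchor (Krt16, Krt6a and Gjb2). With time 8 fell and 1 rose in FL-HER2, where 30.6% of all genes fell and 20.7% rose. In p95HER2 9 fell and 2 rose, beside 18.6% and 16.6% of all genes. Krt6a, a keratin of wounded and hyperproliferative epidermis, fell in FL-HER2 from a median of 4.15 to 0.336 CPM (-4.28 ± 0.44, adjusted p = 2.63e-10) and was higher in p95HER2 at day 22 (2.56 ± 0.44, adjusted p = 0.000202). Krt16 (2.56 ± 0.43, adjusted p = 0.000115) and Krt17 (1.15 ± 0.19, adjusted p = 0.000152) were higher in p95HER2 at day 22 too, among 5 of the 12 that were, beside 2.98% of all genes. Skin-marked libraries were more frequent in p95HER2 than in FL-HER2 at day 22, and Krt16 and Krt6a rose with the anchor. Values of these genes without those libraries are not given.

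Of 23 tested regulators of epidermal differentiation 0 had a slope on the anchor with limma (4 at an unadjusted p under 0.05). With time 12 of the 23 fell and 4 rose in FL-HER2, and 10 fell and 5 rose in p95HER2. Over all genes 30.6% fell and 20.7% rose in FL-HER2, and 18.6% fell and 16.6% rose in p95HER2. Trp63, the master factor of stratified epithelia, fell from a median of 28.1 to 3.32 CPM in FL-HER2 (-3.20 ± 0.18, adjusted p = 9.85e-17) and from 24.2 to 4.96 CPM in p95HER2 (-2.47 ± 0.18, adjusted p = 4.80e-14), the days not overlapping in either. Klf4, a factor of barrier formation, fell in FL-HER2 (-1.25 ± 0.11, adjusted p = 9.12e-12). Of 16 basal and luminal epithelial genes 9 fell and 1 rose with time in FL-HER2, and 10 fell and 3 rose in p95HER2, with Krt14 at medians of 163 and 21.9 CPM in FL-HER2 (-3.25 ± 0.18, adjusted p = 8.27e-17). In this list Krt5 alone rose with the anchor (0.27 ± 0.05, adjusted p = 0.00106).

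The lists of other cell types were counted in the same fits. At day 10 all 20 muscle genes (median -4.52), 8 of 10 fibroblast genes (median -1.51) and 4 of 7 adipocyte genes (median -1.59) were lower in p95HER2, beside 26.1% of all genes. In these lists 0 genes were higher. At day 22 0 of the 37 genes of these 3 lists passed with limma, 3 of them at an unadjusted p under 0.05, all fibroblast genes. For the change between days 7 of 10 fibroblast genes, 2 of 7 adipocyte genes and 1 of 20 muscle genes passed, all upward, beside 13.5% of all genes. On the anchor score 1 fibroblast and 2 adipocyte genes fell beside the muscle genes. Of 5 sebaceous gland genes 0 had a slope on the anchor (1 at an unadjusted p under 0.05), and 3 Langerhans cell and skin T cell genes, 2 neutrophil genes and 1 melanocyte gene were tested, of which 0 had one, also at an unadjusted p under 0.05. Mfge8, 1 of the 3, was at 610 to 1212 CPM in all libraries. Of the same list, Skint1 was too low to be tested. It had 57 reads in the 11 skin-marked libraries, with 0 in 5 of them, and 0 reads in the other 28. Cd207, not tested either, reached 0.284 CPM in the 11 and 0.489 CPM in the 28.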

How the data were processed

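RNA sequencing values of 39 tumor libraries came from 1 table. The deposited values are log2 values: after removing the log and the added 1, each value is a whole multiple of 1 step per library (100% whole within 0.001 reads), so reads and CPM were recovered from them. Libraries held 21772259 to 44427621 reads. A count of 0 allows up to 3 reads, which is 0.0675 to 0.138 CPM, and covers counting error only. The submitters' processing notes name STAR 2.4.2a, DESeq2 and mm10, without roles; the read counter, annotation and strand setting were not given in the sources used here, so reads of close copies and of antisense genes may be shared.

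The deposited log2 values were fitted with limma 3.58.1 (R 4.3.3; lmFit, eBayes with trend, two-sided, Benjamini-Hochberg adjustment over all tested genes, call at an adjusted p under 0.05). The fit had 4 group coefficients, and for the slope the epidermal anchor score as well. The test took genes that reached 1 CPM in 9 or more libraries. Errors of log2 changes and slopes are standard errors. The script was tested on simulated data. Tables and figures were made with Python 3.11.15, pandas 2.3.3, numpy 2.4.6 and matplotlib 3.10.9. A planned slope on a hair anchor was not fitted, because only Dlx4 of its listed genes reached 1 CPM in at least 5 libraries and it was read in all libraries.

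All members are described, and those not tested are given by their levels. From the lists of other epithelial genes, counts and genes with the smallest adjusted p in a comparison are given, for the comparisons described. The lists of other cell types are given by counts, with the levels of single genes where these are named. Members and lists were chosen with earlier results of these data known. Replicate numbers follow accession order and pair nothing. In 1 FL-HER2 day 10 library (replicate 8) the tumor numbers of 2 labels differ. Alternatives changed the pseudocount, filter, scaling, model, covariates and libraries used.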

Additional observations from a re-analysis of the deposited data

Results flagged for a closer look

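In each group, the highest and lowest library of the members' log2 values was checked against its neighbours, 72 checks in all, of which 7 had a library far from the others. Chance gives such a library in about 1 in 20 groups for a gene taken alone, and the members move together, so the 7 are not set against that rate. Of the 7, 5 were FL-HER2 day 22 replicate 7, the only skin-marked library of its group: Krt1 at 3.35 CPM (median of the others 0), Lor at 8.04 CPM (0.213), Dmkn at 3.32 CPM (0.253), Asprv1 at 1.83 CPM (0.262) and Dsg1a at 0.962 CPM (0). These 5 genes passed the filter only through the skin-marked libraries, so such a library could hardly do other than stand apart. The summed hair keratins stood apart in p95HER2 day 22 replicate 10, at 12.2 CPM (0.056), and in FL-HER2 day 10 replicate 7, at 0.324 CPM (0.0295).

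The effect of p95HER2 differed between the days for 3 members by the interaction test of limma: Calml3 (1.22), Ly6d (1.54) and Wfdc12 (2.77, log2 scale), that is 3 of 17 members beside 19.6% of all genes, a share near that over all genes.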

How the results depend on the processing

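No paired analysis was possible because tumor numbers are not shared between groups and replicate numbers follow accession order. Of the values of single members, leaving out 1 library at a time left 2048 on the same side of the threshold, with the sign turned in 0 of them, made 3 pass and 16 fail. The other alternatives left 534 on the same side (5 of them with the sign turned and neither value past the threshold), made 17 pass and 48 fail, and turned 8 in which at least 1 of both values was past it. With 1 library left out, the number of members called ran from 5 to 5 at day 10, 2 to 2 at day 22, 11 to 12 for time in FL-HER2, 8 to 9 for time in p95HER2, 3 to 4 for the change between days and 10 to 11 for the slope. Without the skin-marked libraries it was 1 at day 22, 5 for time in p95HER2 and 6 for the change between days. With the anchor score as a covariate Krt10 turned to -0.578 at day 10 and 0.598 for time in p95HER2. The number of members called was then 8 at day 10, beside 38% of all genes, and 5 for the change between days, beside 19.9%. For the slope it was 20 of 37 with no filter, 7 of 13 with a filter at 5 CPM, 7 in FL-HER2 day 10 alone, 0 in FL-HER2 day 22 alone (limma, 10 at an unadjusted p under 0.05) and 4 in p95HER2 day 22 alone. With the sebaceous gland list as the anchor it was 0 (1 at an unadjusted p under 0.05), and the slopes of Cdsn (-0.862), Dsg1a (-1.53), Krt1 (-3.28), Krt10 (-0.11), Lor (-2.1) and Spink5 (-0.372) turned, with adjusted p from 0.702 to 0.981. The summed CPM of all 24 anchor genes as the anchor, chosen after seeing the data, called 11 members and 3.46% of all genes. The slope could not be run without the skin-marked libraries, since the score is then 0 in 26 of 28. The cause of these shifts was not tested.

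Over all genes the share called changed by more than 1.5 times with the digits of the column name as a covariate (10.1% at day 10, 21.6% for time in FL-HER2, 1.71% for the change between days), with the muscle score (23.7% at day 10, 0.198% for the slope) and without the skin-marked libraries (1.67% at day 22, 12.2% for the change between days). With no filter, where 20520 genes were tested, it was 2.74% at day 22 and 11.8% for the change between days. For the slope it was 343 genes with a filter at 5 CPM against 550, and 24, 0, 15 and 6 genes in FL-HER2 day 10, FL-HER2 day 22, p95HER2 day 10 and p95HER2 day 22 alone, and 0 with the sebaceous anchor. Depth limits members under 1 CPM, which are given by their levels only.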
